A study of Macaca mulatta with 304 samples.

Results

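The genes described here encode the nuclear subunits of the 5 complexes of oxidative phosphorylation. They were taken by symbol from the count table: names beginning with NDUFA, NDUFB, NDUFC, NDUFS, NDUFV, SDH, UQCR, COX4 to COX8 or ATP5, and CYC1, without the assembly factors NDUFAF and SDHAF. Of 80 matching symbols among 21070 counted genes, 74 had at least 3 counts in 80% of samples and were tested, among 13751 tested genes in all. These 74 hold 36 of 37 symbols of complex I, 4 of 4 of complex II, 6 of 6 of complex III, 11 of 15 of complex IV and 17 of 18 of complex V.

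Whole blood of 28 healthy adult rhesus macaques of Chinese origin (14 females and 14 males) was sequenced as RNA depleted of ribosomal RNA. The upper thorax was irradiated with 9.8 Gy in 12 animals (lower dose, LD) and 10.7 Gy in 16 animals (higher dose, HD). The 24 control samples were drawn 2 days before irradiation, 1 from each of 24 animals, 12 of each dose and 12 of each sex. Irradiated samples were grouped as early (Day 3 to 21, 28 animals), medium (Day 30 to 90, 95 samples of 28 animals) and late (Day 94 to 270, 53 samples of 16 animals, 12 LD and 4 HD). After irradiation all animals were given the analgesic tramadol or buprenorphine over most of the early period, dexamethasone was given for fast breathing, and late samples come only from animals that had survived. No unirradiated animal was followed over time, so time after irradiation and time in the study cannot be told apart.

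Oxidative phosphorylation takes electrons from NADH (complex I) and succinate (complex II) through complex III and cytochrome c to oxygen (complex IV), and uses the proton gradient to make ATP (complex V). Most subunits are encoded in the nucleus, and a smaller set, which was not analysed here, is encoded in mitochondrial DNA. In blood, mature red cells lack mitochondria, reticulocytes still carry RNA and some mitochondria, lymphocytes and monocytes respire, and neutrophils rely mainly on glycolysis. The expression of subunit genes is known to be driven by the factors NRF1, GABPA (an ETS factor) and YY1.

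Samples held 2840219 to 23638161 counts on genes, with a median of 8227563. The subunit genes took a median of 0.277% of the counts in control samples, 0.289% in early, 0.262% in medium and 0.216% in late samples. The labels number the libraries in a low range (series A), a higher range (series B) or as 0 (series C). Control samples were 20 of series A and 4 of series C, and early samples were 100, 8 and 24 of series A, B and C. Medium samples were 19 of series B and 76 of series C, and late samples 7 and 46, with none of series A. What a series stands for is not given in the sources used here, so comparisons of medium and late samples with control were also fitted with the series as a term. Summed CPM (counts scaled to library size) of 11 erythroid markers had a median over animals of 6566 in control (1821 to 11970), 18570 early (6885 to 39010), 9937 medium and 7692 late. Those of 8 B cell markers were 1500, 616, 1044 and 342, of 7 T cell markers 1604, 1590, 1254 and 920, and of 8 neutrophil markers 3169, 2992, 3800 and 6316. In whole blood, fewer cells of a type and less RNA per cell cannot be told apart.

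The upstream sequences of 4 genes are shown because their products work side by side or changed most, while their RNA moved differently below. COX7B and ATP5F1E had the largest early rises, and SDHB and SDHA, neighbours in complex II, moved in opposite directions. Each is the 250 bases before the annotated start on Mmul_10, given 5′ to 3′ on the strand of the gene. Capitals mark a match, on either strand, to the NRF1 motif GCGCNTGCG, the ETS motif CCGGAAGT or the YY1 motif AANATGGC.
COX7B, chrX:74587675-74587924, plus strand: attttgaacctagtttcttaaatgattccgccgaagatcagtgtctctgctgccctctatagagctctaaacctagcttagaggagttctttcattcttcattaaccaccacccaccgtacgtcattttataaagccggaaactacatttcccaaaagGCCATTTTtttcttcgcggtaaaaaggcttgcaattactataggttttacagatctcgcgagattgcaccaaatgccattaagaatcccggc
ATP5F1E, chr10:94195216-94195465, minus strand: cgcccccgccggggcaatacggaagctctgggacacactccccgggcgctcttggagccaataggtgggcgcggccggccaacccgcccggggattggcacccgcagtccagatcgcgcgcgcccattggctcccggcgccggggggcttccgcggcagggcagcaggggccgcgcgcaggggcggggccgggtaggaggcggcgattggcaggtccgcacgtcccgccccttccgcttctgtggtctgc
SDHB, chr1:207711337-207711586, plus strand: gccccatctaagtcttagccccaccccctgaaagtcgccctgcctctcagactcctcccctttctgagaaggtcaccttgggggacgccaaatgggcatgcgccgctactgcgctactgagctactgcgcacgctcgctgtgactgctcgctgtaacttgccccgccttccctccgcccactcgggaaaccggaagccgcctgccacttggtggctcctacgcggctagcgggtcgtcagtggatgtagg
SDHA, chr6:195124-195373, plus strand: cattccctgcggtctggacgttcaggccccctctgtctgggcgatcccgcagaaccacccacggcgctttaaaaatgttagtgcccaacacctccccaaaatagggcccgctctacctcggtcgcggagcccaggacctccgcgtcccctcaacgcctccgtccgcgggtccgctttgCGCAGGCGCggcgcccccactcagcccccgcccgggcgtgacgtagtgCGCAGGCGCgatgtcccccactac
SDHA had 2 matches to the NRF1 motif, COX7B had 1 to the YY1 motif, and ATP5F1E and SDHB had none of the 3 motifs in these letters. Of the 74 subunit genes, 14 (18.9%) had the NRF1 motif, 6 (8.11%) the ETS motif and 9 (12.2%) the YY1 motif in this window. Among 13655 tested genes on assembled chromosomes the shares were 8.19%, 3.61% and 4.5%. Of the 36 subunit genes that were higher at early time points, 5, 3 and 6 had the NRF1, ETS and YY1 motifs, against 9, 3 and 3 of the other 38. A match is a run of letters and does not show binding.

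Before irradiation the subunit genes were among the more abundant RNAs of blood. Per kilobase of exon, their median level over 24 control samples was 25.9 CPM per kb, against 7.67 over all 13751 tested genes, and 66 of 74 lay above that value. Complex V was at a median of 34.9 CPM per kb, complex III at 36.9, complex IV at 29.1, complex II at 27.4 and complex I at 20.8. ATP5F1A, the alpha subunit of the catalytic head of ATP synthase, had the highest median level at 175 CPM per kb (125.5 to 243 over animals). COX8A, a small subunit of cytochrome oxidase, was at 145 (63.5 to 235.3) and ATP5F1E, the epsilon subunit of the central stalk, at 136.8 (39.4 to 312). The ranges of these 3 genes overlap widely. COX6B2, known as the testis form of subunit 6B, was lowest at 0.792 CPM per kb.

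At early time points the subunit genes rose more often than they fell. Each animal's counts over Day 3 to 21 were compared with those of its own control in 24 animals. Used here was edgeR's quasi-likelihood test with Benjamini-Hochberg adjustment, and a gene passed the test at an adjusted p of at most 0.05. In all, 36 of 74 were higher (48.6%, against 21.1% of all tested genes) and 3 were lower (against 27.9%). By a fold of at least 1.5, 7 were higher (5.79% of all genes) and 0 were lower (1.75%). Without the adjustment 42 of 74 had p under 0.05, and the share of all genes at that p is not given here. The 3 lower genes that passed the test were SDHA, UQCRC1 and NDUFB10. The median log2 fold change was 0.18, against -0.02 over all genes, and 63 of 74 values were above 0. In single animals the median over the subunit genes lay between -0.20 and 0.70, and it was above 0 in 19 of 24. Outside this set chosen by symbol, 20 unnamed gene models with subunit products were tested. Of these, 7 were higher and 6 lower early, with a median of 0.07.

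**Figure D1:**
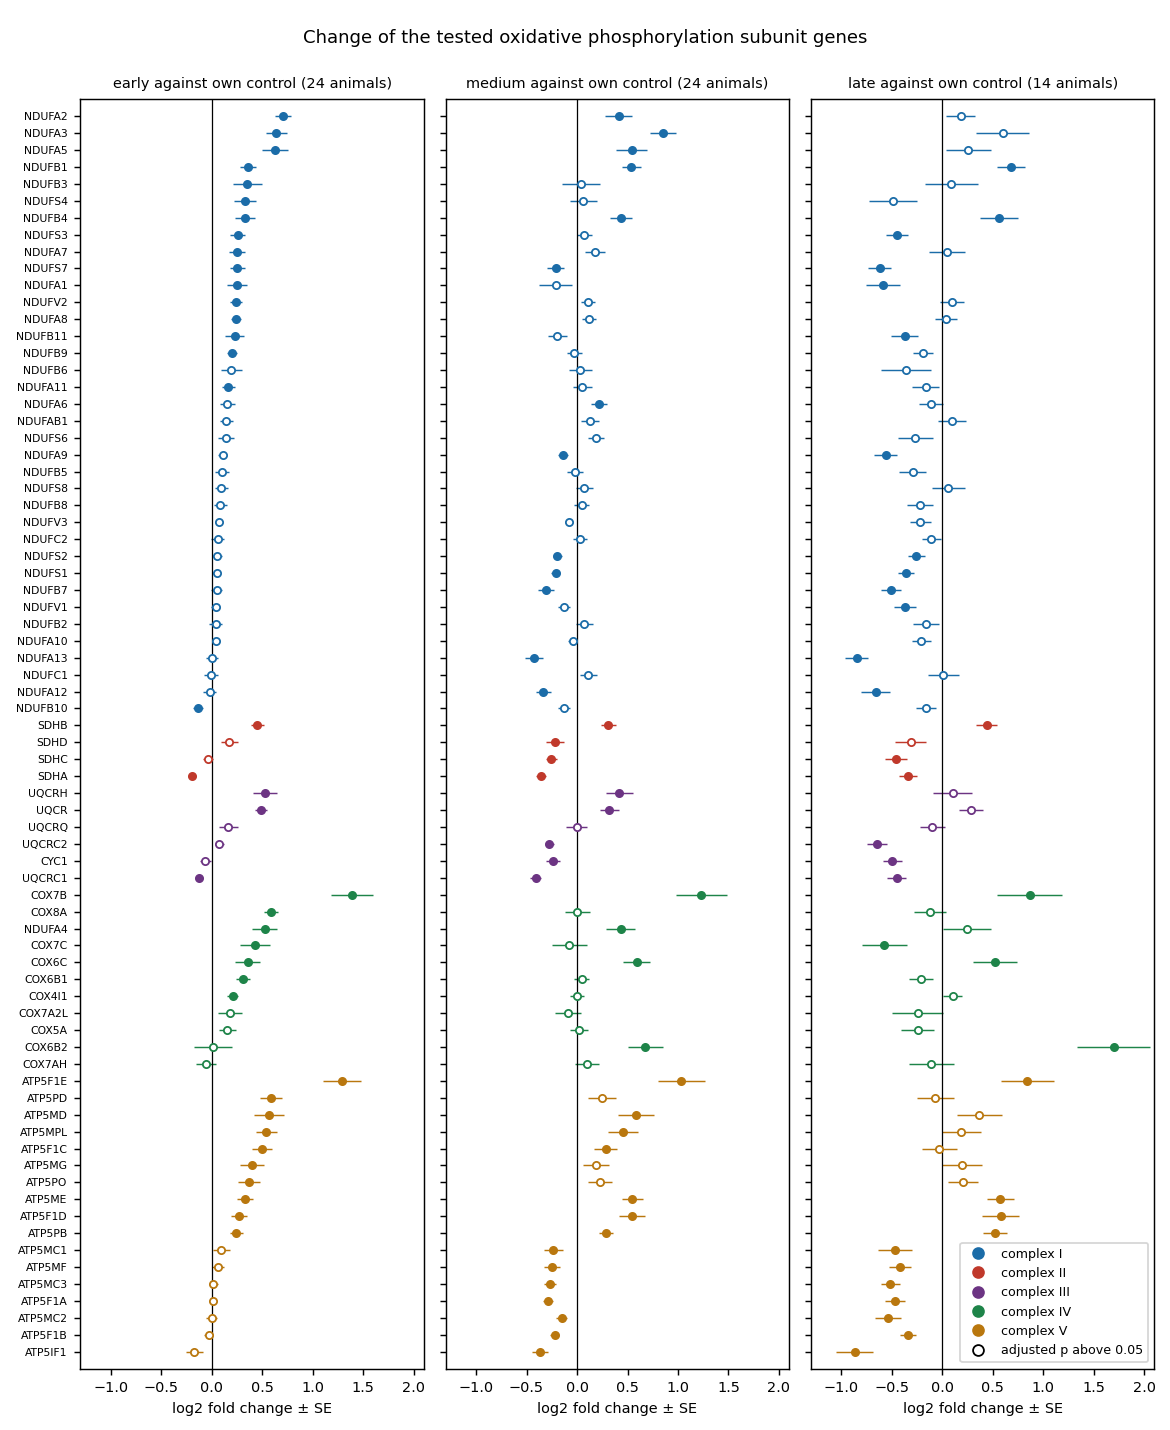
Log2 fold change against the own control (x axis, ± SE) of each of the 74 subunit genes (y axis, ordered by complex and early change) at early, medium and late time points. Filled points passed the test: 36 were higher and 3 lower early, 20 and 20 medium, and 10 and 24 late.

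In complex I, the NADH dehydrogenase, 16 of 36 genes were higher and 1 lower early. Of the 7 nuclear core subunits, which carry the flavin and the iron-sulfur clusters, 3 were higher, and of 29 accessory subunits 13 were higher and 1 lower. NDUFA2, an accessory subunit of the matrix arm, went from a median of 14.7 CPM (8.31 to 25.8) to 23.9 CPM (16.1 to 44.6). It was higher in 24 of 24 animals, though the ranges of the groups overlapped (log2 fold change 0.70 ± 0.08 SE, adjusted p = 2.21e-08). A TMCO6 exon on the other strand shares 264 bases with it, and whether counting used the strand is not stated, so the 2 cannot be told apart there. NDUFB10, an accessory subunit of the membrane arm, was at 21.6 CPM (15.4 to 27.2) in control and 19.2 CPM (16.4 to 27.4) early, and was lower in 19 of 24 animals (-0.13 ± 0.05, adjusted p = 0.0187). The core subunits NDUFS1 and NDUFV1, which hold iron-sulfur clusters and the flavin, did not pass the test early. NDUFS1 had a median of 56.8 CPM before and 58.9 CPM after irradiation (log2 fold change 0.05 ± 0.04).

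Complex II, succinate dehydrogenase, is also an enzyme of the tricarboxylic acid cycle, and its 4 subunits did not move together. SDHB, the iron-sulfur subunit, went from a median of 38.7 CPM (22.1 to 52.97) to 50.2 CPM (40.1 to 77.3) and was higher in 24 of 24 animals (0.45 ± 0.06, adjusted p = 1.06e-06). SDHA, the flavoprotein that oxidises succinate, went from 99.5 CPM (58.6 to 128.05) to 86.5 CPM (65.2 to 100.8) and was lower in 20 of 24 (-0.20 ± 0.04, adjusted p = 0.00044). The membrane anchors SDHC (-0.04 ± 0.05) and SDHD (0.17 ± 0.09) did not pass the test. The gene model of SDHD has 1 exon. A second model with an SDHA-like product, LOC723069, was also lower early (-0.40 ± 0.05, adjusted p = 3.12e-07), and reads of near-identical copies may be split between such models.

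In complex III, which passes electrons from ubiquinol to cytochrome c, 2 of 6 genes were higher and 1 lower. UQCRH, the hinge subunit next to cytochrome c1, rose from 14.4 CPM (5.72 to 24.5) to 21.1 CPM (14.4 to 26.1) in 18 of 24 animals (0.52 ± 0.12, adjusted p = 0.000685). UQCRC1, a large core subunit, had the same median of 81.4 CPM in both groups (from 56.8 up and from 53.8 to 97.1), and was lower in 18 of 24 animals (-0.12 ± 0.04, adjusted p = 0.0143). CYC1, the cytochrome c1 subunit, had a value of -0.06 ± 0.05 and did not pass the test. The Rieske subunit was not counted under the symbol UQCRFS1, but a model with that product, LOC700087, had a value of 0.13 ± 0.05 (adjusted p = 0.0392).

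In complex IV, cytochrome c oxidase, 7 of 11 genes were higher early and 0 lower. COX7B, a small subunit that spans the membrane, had the largest early change of all 74 genes. Its level went from a median of 25.6 CPM (4.05 to 69.5) to 66.6 CPM (27.1 to 168). It was higher in 22 of 24 animals, and the groups overlapped between 27.1 and 69.5 CPM (1.39 ± 0.21, adjusted p = 3.7e-06). NDUFA4, now placed in complex IV, was at 14.5 CPM (5.13 to 29.9) and 19.0 CPM (14.02 to 26.6), with 0.53 ± 0.12 (adjusted p = 0.000943). COX4I1, a large nuclear subunit, went from 77.98 to 94.3 CPM in 19 of 24 animals (0.21 ± 0.05, adjusted p = 0.00215). COX5A, which binds near the matrix face, had 0.16 ± 0.09 and did not pass the test, and COX5B, counted as LOC707227, had 0.26 ± 0.05 (adjusted p = 0.000105). COX6B1 rose (0.31), whereas COX6B2 had 0.01 ± 0.18.

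Among isoforms known from other tissues, COX4I2 was above 0 in 3 of 24 control animals, and COX6A2 (of heart and muscle) and COX7B2 were at 0 in every library. COX6A1, counted as LOC696956, rose early (0.42 ± 0.08, adjusted p = 6.01e-05). NDUFA4L2 had at least 3 counts in too few samples to be tested and had a median of 0.538 CPM in control animals. The model named COX7C has 1 exon of 270 bases and lay just inside the count limit, with 3 counts in 90.1% of samples and a median of 1.14 CPM in control. The model LOC106998836, also named as subunit 7C, had an early value of 0.64 ± 0.14 (adjusted p = 0.000317), against 0.43 ± 0.15 (adjusted p = 0.0163) for COX7C. NDUFB3 was also near the limit (95.4% of samples), and NDUFS5 lay outside it, with a median of 0.226 CPM in control. The other gene outside, ATP5PF, shares 742 of its 760 exonic bases with GABPA on the other strand and reached 3 counts in 2.3% of samples.

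In complex V, the ATP synthase, 10 of 17 genes were higher and 0 lower early. ATP5F1E, on chromosome 10 at 94191273 to 94195215, went from a median of 56.5 CPM (16.3 to 129) to 138.1 CPM (70.4 to 254). All 24 animals were higher, and the ranges overlapped between 70.4 and 129 CPM (1.29 ± 0.19, adjusted p = 2.61e-06). ATP5PB, a subunit of the peripheral stalk, went from 81.96 CPM (49.7 to 98.9) to 90.6 CPM (78.6 to 123.9) in 19 of 24 animals (0.24 ± 0.06, adjusted p = 0.00227). The alpha and beta subunits of the catalytic head did not pass the test: ATP5F1A had 0.01 ± 0.04 and ATP5F1B, the beta subunit, -0.03 ± 0.04. The c-ring genes ATP5MC1 (0.09), ATP5MC2 (-0.00) and ATP5MC3 (0.02), which encode the same mature protein, did not pass the test, and neither did ATP5IF1, the inhibitor of the synthase (-0.17 ± 0.09, adjusted p = 0.1). Of unnamed models with c-ring products, LOC700815 was lower (-0.47 ± 0.16, adjusted p = 0.0158), and LOC696144 (-0.09) and LOC706691 (-0.07) did not pass the test. The remaining early changes over a fold of 1.5 were NDUFA3 (0.64), NDUFA5 (0.63), COX8A (0.59) and ATP5PD (0.59), named after their values were seen. Exons of OSCAR and TFPT on the other strand share 159 and 158 bases with NDUFA3, so its counts carry the same doubt as those of NDUFA2.

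**Figure D2:**
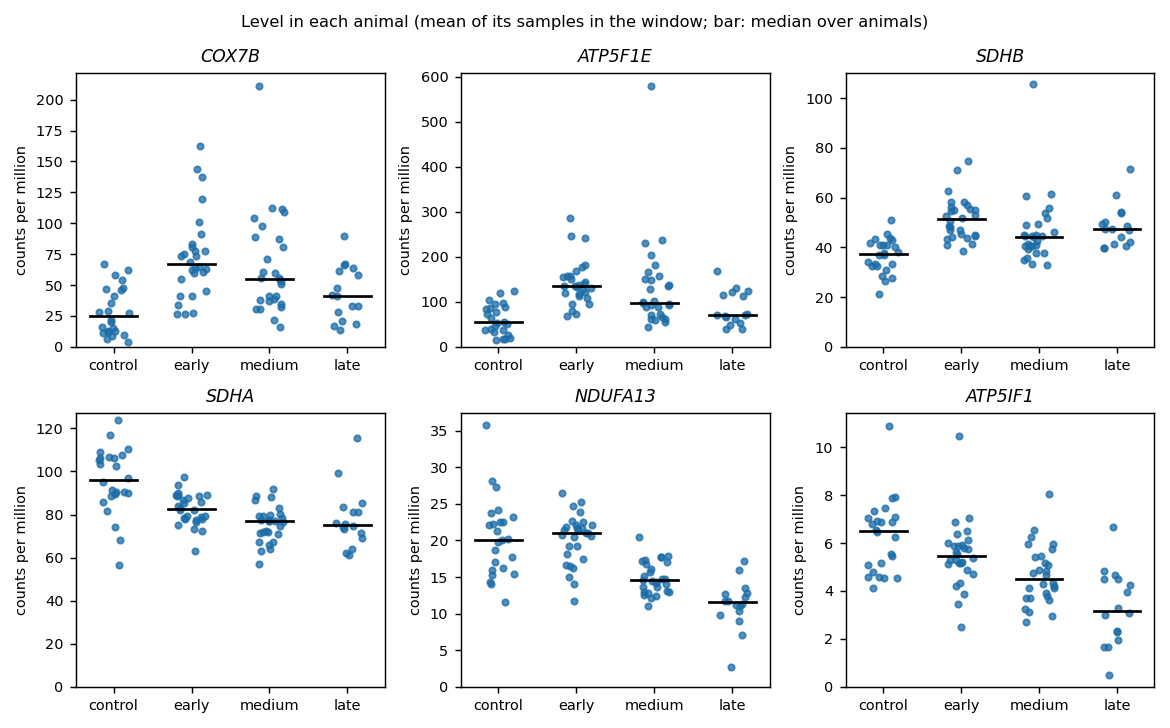
CPM (y axis, from 0) of 6 subunit genes in each animal (points, the mean of its samples in that window) in control, early, medium and late samples (x axis), with the median as a bar. Levels of COX7B, ATP5F1E and SDHB are shifted up after irradiation and those of SDHA down. For SDHA, time and library series cannot be told apart in medium and late samples. NDUFA13 and ATP5IF1 are lowest in late samples, and groups overlap in each gene.

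The early calls were little changed within library series. With samples of the same series as the own control, 35 genes were higher (20.6% of all genes) and 3 lower (27.5%), and with the series as a term 29 (16.9%) and 2 (24.2%). The erythroid markers moved in the same samples, with 11 of 11 higher (median 1.64), as did the B cell markers with 8 of 8 lower (median -0.995) and the platelet markers with 4 of 5 higher (median 0.60). Their part in the change of the subunit genes was not tested.

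The change also went with the length of the RNA. Subunit genes are short, with 270 to 2900 exonic bases (median 872.5), against a median of 3314 bases over all tested genes. Early, 27 of 45 subunit genes of up to 1000 bases were higher and 1 lower, against 37.9% higher and 8.19% lower of all genes of that length. Of 12 genes of over 1000 and up to 1500 bases 8 were higher (27% of all genes of that length), but of 17 longer genes 1 was higher and 2 were lower (19.4% and 30.4%). Across the 74 genes, which share libraries and depth, Spearman's correlation of length and log2 fold change was -0.43 early, -0.33 medium and -0.26 late, and across all genes -0.16, -0.06 and 0.01. Day 3 was different: 11 of 17 genes over 1500 bases were higher and 0 lower (20% and 34.8% of all genes of that length). The study describes RNA integrity as alike over all samples, values per sample were not analysed here, and the part of length was not tested.

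**Figure D3:**
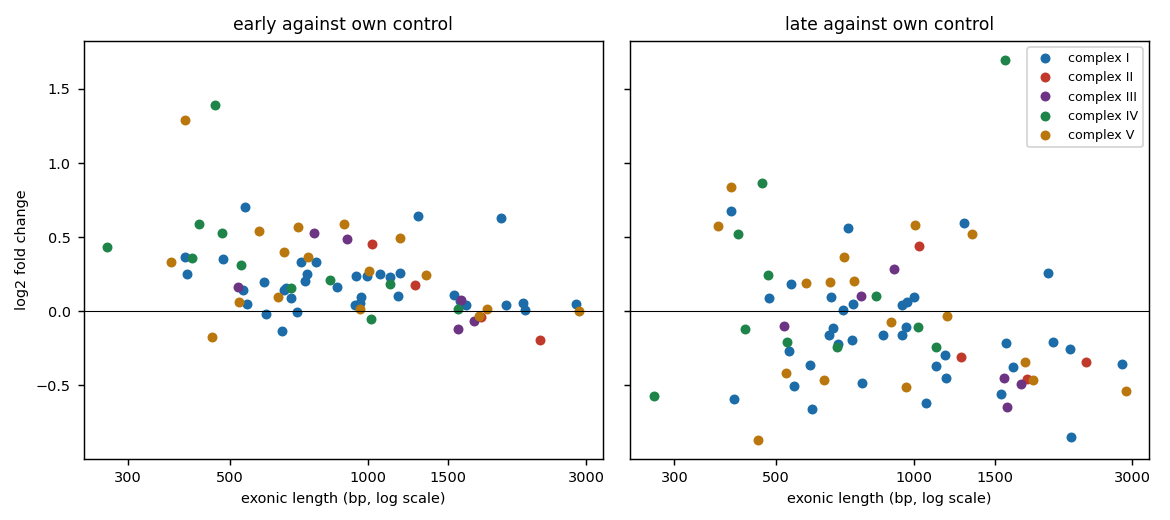
Log2 fold change against the own control (y axis) by exonic length in bases (x axis, log scale) of the 74 subunit genes, coloured by complex, at early and late time points. Early, 27 of 45 genes of up to 1000 bases were higher, but 1 of 17 over 1500 bases, and late 13 of those 17 were lower.

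By day, the early rise had 2 peaks with a gap between them. On Day 3, 47 of 74 genes were higher (21.6% of all genes) and 1 lower (32.3%), the lower gene being ATP5IF1 (-0.37). On Day 6 it was 33 higher (16.8%) and 2 lower (27.8%), and on Day 9 it was 13 higher (25.7%) and 11 lower (24.4%). On Day 15, 28 were higher (15.9%) and 7 lower (24.7%), and on Day 21, 41 were higher (26.9%) and 4 lower (25.4%). On Day 3, 6 of 7 core subunits of complex I were higher, and 5 of 5 subunits of the ATP synthase head and central stalk (ATP5F1A to ATP5F1E). In the pooled early samples it was 3 and 3, and the head subunits ATP5F1A and ATP5F1B did not pass the test there. On Day 21, 17 genes were higher by a fold of 1.5 (7.65% of all genes), with COX7B at a median of 94.8 CPM (24.9 to 312; log2 fold change 1.96 ± 0.23) and ATP5F1E at 162 CPM (71.2 to 494; 1.71 ± 0.21). SDHA (-0.46), UQCRC1 (-0.37), ATP5F1B (-0.28) and CYC1 (-0.15) were the 4 lower genes on Day 21.

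The days were then compared with each other in the animals drawn on both, a choice made after the days had been seen. From Day 3 to Day 9, 38 of 74 genes were lower (27.6% of all genes) and 4 higher (38.6%) in 24 animals. UQCR, a small subunit of complex III, went from a median of 49.5 CPM (24.3 to 77.5) on Day 3 to 30.5 CPM (10.2 to 44.9) on Day 9 (-0.77 ± 0.12, adjusted p = 2.02e-06). NDUFS8, a core iron-sulfur subunit, went from 24.4 CPM (19.4 to 37.7) to 16.7 CPM (7.47 to 27.5) and was higher in 0 animals (-0.61 ± 0.09, adjusted p = 1.9e-06), and UQCRC1 from 93.8 CPM (62.3 to 121.8) to 68.5 CPM (29.4 to 98.7), also higher in 0 (-0.56 ± 0.07, adjusted p = 5.26e-08). NDUFA5 (0.54), COX6C (0.51), ATP5F1C (0.29) and NDUFS4 (0.27) rose. From Day 9 to Day 21, 51 genes were higher (21.6%) and 3 lower (19.1%) in 28 animals, by edgeR's test with the animal as a block. In HD animals all Day 21 libraries were of series B or C, whereas most Day 9 libraries were of series A. Day and series cannot be told apart in most HD animals, and no fit of this pair of days took the series into account. COX7B went from 41.02 CPM (18.24 to 137.4) to 99.8 CPM (24.6 to 309) and was higher in 25 of 28 (1.20 ± 0.15, adjusted p = 2.56e-07). Without the animal as a block, 28 were higher (10.5%) and 1 lower (11.6%).

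**Figure D4:**
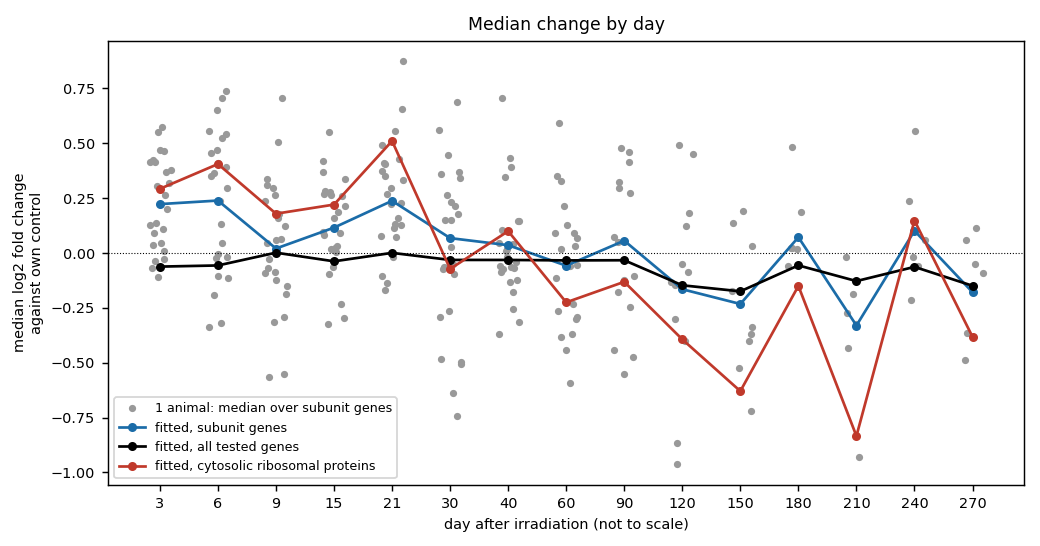
Median log2 fold change against the own control (y axis) by day after irradiation (x axis, not to scale), fitted over the 74 subunit genes, all tested genes and the cytosolic ribosomal proteins, with the median over subunit genes in each animal as a point. The subunit genes lie above 0 on Day 3, 6 and 21, near 0 on Day 9, and below 0 on Day 210 in 6 of 6 animals.

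At medium time points the subunit genes split evenly, with 20 of 74 higher (19.9% of all genes) and 20 lower (25.4%) in 24 animals. By a fold of 1.5, 5 were higher (4.48%) and 0 lower (1.27%). The median log2 fold change was 0.04 against -0.02 over all genes, and the median per animal lay between -0.49 and 0.49. The lower genes of this split did not pass the test in fits that took the library series into account. With the series as a term 6 genes were higher (10.4% of all genes) and 0 lower (14.4%). In the 4 animals with samples and control of 1 series 14 were higher (5.55%) and 0 lower (4.03%).

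COX7B stayed high at a median of 56.5 CPM (16.6 to 218.9) against 25.7 CPM (4.06 to 69.7) before, in 18 of 24 animals (1.23 ± 0.25, adjusted p = 0.00029). ATP5F1E was at 99.8 CPM (45.8 to 601) against 56.6 CPM (16.3 to 129) in 19 of 24 (1.03 ± 0.23, adjusted p = 0.000657). The other 3 over a fold of 1.5 were NDUFA3 (0.85, with the overlap given above), COX6B2 (0.68) and COX6C (0.59). UQCRC1 was lower in 24 of 24 animals, at 63.4 CPM (51.1 to 76.8) against 81.6 CPM (56.95 to 123.2), with -0.41 ± 0.05 (adjusted p = 1.19e-06), but its value was -0.04 (adjusted p = 0.788) with the series as a term. For SDHA the same values were -0.35 ± 0.05 (adjusted p = 1.98e-06) and -0.08 (adjusted p = 0.406), and for ATP5F1A -0.29 ± 0.05 (adjusted p = 5.46e-05) and -0.15 (adjusted p = 0.13). These levels were thus lower in libraries of series B and C than in control libraries that were mostly of series A, and time and series cannot be told apart for them.

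By day, 16 genes were higher (11.2% of all genes) and 13 lower (14.8%) on Day 30, 16 (18.2%) and 17 (25.7%) on Day 40, 6 (7.51%) and 14 (12.2%) on Day 60 in 21 animals, and 6 (9.62%) and 8 (12%) on Day 90 in 15 animals. ATP5PB was higher on 11 of the 15 days tested and above 0 on 15, and ATP5F1D, ATP5F1E and COX7B were higher on 10. Exons of LOC114673974 on the other strand share 249 bases with ATP5F1D, so the counts of ATP5F1D carry the same doubt as those of NDUFA2. SDHA and UQCRC1 were lower on 10 days, NDUFA13 on 9 and ATP5IF1 on 8. The days share the control samples.

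**Figure D5:**
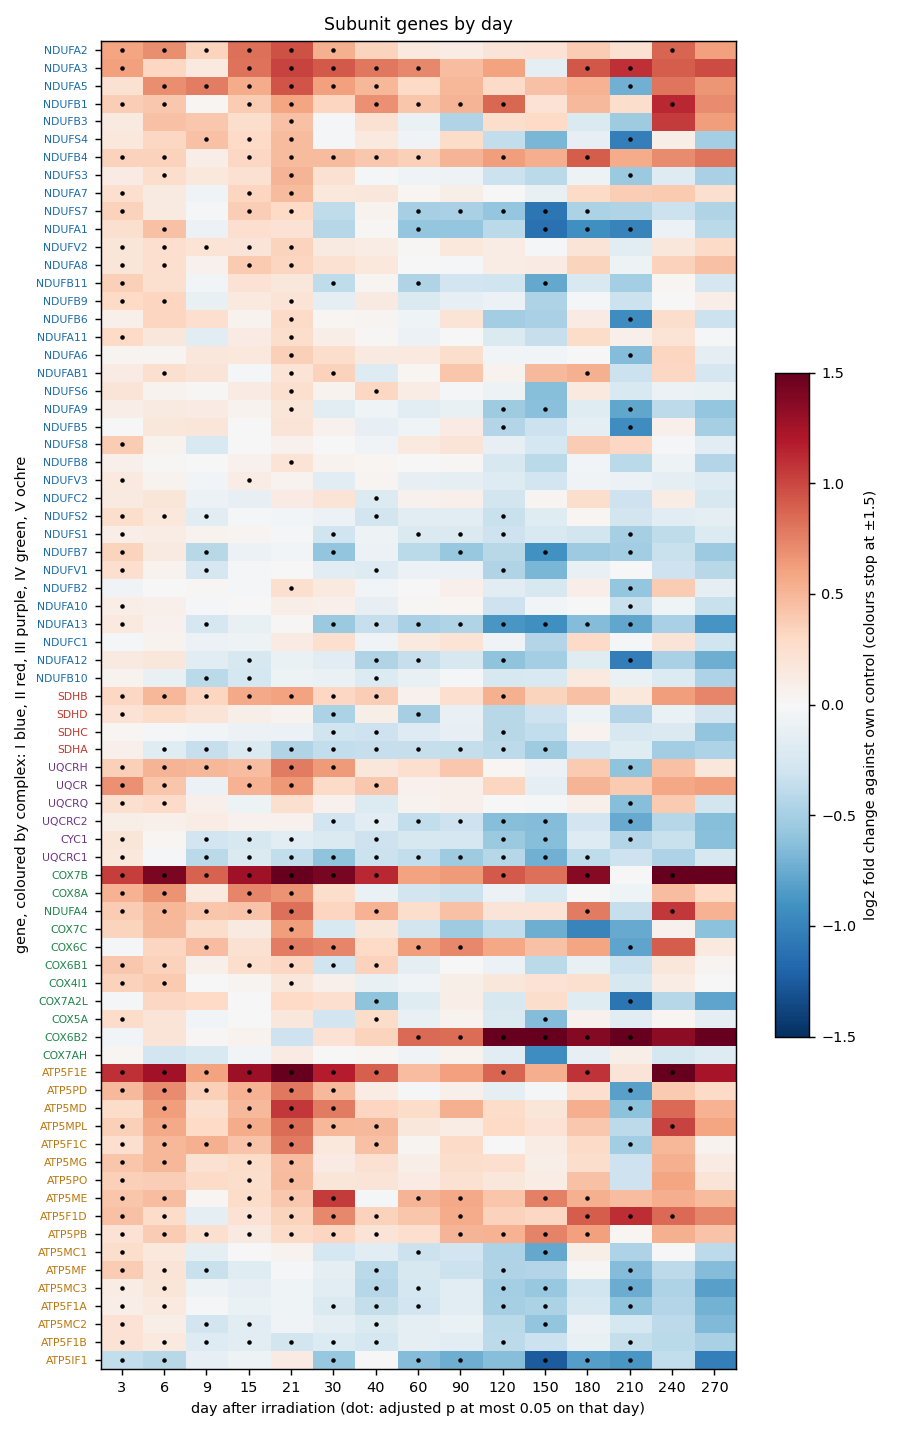
Log2 fold change against the own control (colour, red higher and blue lower) of the 74 subunit genes (y axis, by complex) on each of 15 days (x axis), with a dot where the test was passed. COX7B and ATP5F1E are red on nearly all days, most genes are red on Day 3 and Day 21, and most are blue on Day 210.

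At late time points more subunit genes were lower than higher, as for all genes. Of 74, 10 were higher (21.8% of all genes) and 24 lower (33.5%) in 14 animals, and by a fold of 1.5, 4 were higher (14%) and 6 lower (18.5%). The share of lower genes, 32.4%, was thus near that of all genes, and the medians were -0.16 and -0.13. The median per animal lay between -0.97 and 0.20 and was above 0 in 4 of 14. With the series as a term 8 genes were higher (23.9% of all genes) and 13 lower (41.6%), so that the share of lower subunit genes, 17.6%, was then below that of all genes.

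In complex I, 11 of 36 genes were lower and 2 higher, among them 5 of 7 core subunits lower. NDUFA13, an accessory subunit also known as GRIM19, went from a median of 20.6 CPM (13.96 to 34.9) to 11.3 CPM (6.96 to 16.8) and was lower in 14 of 14 animals, with overlap between 13.96 and 16.8 CPM (-0.85 ± 0.12, adjusted p = 1.94e-05). Exons of TSSK6 on the other strand overlap 1139 of its bases. NDUFS1 went from 54.9 CPM (42.4 to 66.2) to 42.2 CPM (30.97 to 55.4) in 14 of 14 animals (-0.36 ± 0.08, adjusted p = 0.000974), but with the series as a term it had -0.06 (adjusted p = 0.373). NDUFV1 had -0.37, and -0.19 (adjusted p = 0.13) with that term. NDUFB1, an accessory subunit of the membrane arm, rose from 7.18 CPM (3.59 to 10.2) to 11.4 CPM (8.10 to 14.7) in 13 of 14 animals (0.68 ± 0.14, adjusted p = 0.000591).

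The 2 catalytic subunits of complex II stayed apart. SDHB was at 46.2 CPM (38.9 to 59.6) against 34.6 CPM (20.8 to 49.9) and higher in 12 of 14 animals (0.44 ± 0.11, adjusted p = 0.00204). SDHA was at 73.3 CPM (59.5 to 96.8) against 102 CPM (55.3 to 120.7) and lower in 13 of 14 (-0.34 ± 0.09, adjusted p = 0.00417), with -0.06 (adjusted p = 0.501) where the series was a term. The second model with an SDHA-like product, LOC723069, did not pass the test late (-0.09 ± 0.12, adjusted p = 0.545) or medium (-0.11 ± 0.06, adjusted p = 0.0963). SDHC was lower (-0.46 ± 0.11, adjusted p = 0.00184). In complex III, 3 of 6 genes were lower and 0 higher: UQCRC2, a core subunit (-0.64 ± 0.10, 14 of 14 animals), CYC1 (-0.49 ± 0.09, 14 of 14) and UQCRC1 (-0.45 ± 0.10, 13 of 14). UQCRC1 turned to 0.04 with the series as a term.

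In complex IV, 3 of 11 genes were higher and 1 lower. COX6B2 was at 4.78 CPM (1.13 to 7.93) against 1.17 CPM (0.313 to 7.17) and higher in 12 of 14 animals (1.70 ± 0.36, adjusted p = 0.000718), from the lowest control level per kilobase of all subunit genes. COX7B was at 40.4 CPM (16.8 to 87.5) against 24.4 CPM (3.82 to 60.7) in 9 of 14 animals (0.86 ± 0.32, adjusted p = 0.03), and missed the threshold with the series as a term (adjusted p = 0.0538). The model named COX7C, of low counts, was lower (-0.58 ± 0.22, adjusted p = 0.0339). Other models with a subunit 7C product did not pass the test: LOC106998836 had -0.05 ± 0.25 (adjusted p = 0.886) and LOC114673956 had -0.39 ± 0.23 (adjusted p = 0.162). In complex V, 4 of 17 were higher and 7 lower. ATP5F1E (0.84 ± 0.26, adjusted p = 0.0115) and ATP5PB (0.52 ± 0.12, adjusted p = 0.00125) rose, the latter in 13 of 14 animals. The head subunits ATP5F1A (-0.46) and ATP5F1B (-0.34) and the c-ring genes ATP5MC1 (-0.47), ATP5MC2 (-0.54) and ATP5MC3 (-0.51) fell. Unnamed models with c-ring products did not: LOC706691 was higher (0.73 ± 0.23, adjusted p = 0.0126), and LOC700815 (0.25 ± 0.25) and LOC696144 (0.04 ± 0.27) did not pass the test. ATP5IF1 went from 5.71 CPM (4.42 to 10.6) to 3.10 CPM (1.60 to 6.51) and was lower in 13 of 14 animals (-0.87 ± 0.18, adjusted p = 0.000694).

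Late and medium samples of the same 16 animals, none of series A, were compared with no control sample. Here 28 of 74 genes were lower (42.4% of all genes) and 5 higher (22%), and by a fold of 1.5, 1 was lower (12.6%) and 1 higher (9.38%). The median was -0.20 against -0.19 over all genes, and the median per animal was above 0 in 3 of 16. UQCRC2 went from 58.5 CPM (45.4 to 68.1) to 45.04 CPM (22.8 to 60.2) and was lower in 15 of 16 (-0.40 ± 0.09, adjusted p = 0.000707). COX5A went from 21.1 CPM (15.5 to 26.5) to 16.0 CPM (6.66 to 23.3) in 13 of 16 (-0.40 ± 0.10, adjusted p = 0.00262). COX6B2 was higher in 16 of 16, at 5.25 CPM (1.12 to 14.3) against 1.90 CPM (0.688 to 5.22), with 1.35 ± 0.21 (adjusted p = 3.88e-05). SDHA (0.06) and UQCRC1 (0.08) did not pass the test here. In the late samples, 8 of 8 B cell markers (median -2.04 against control) and 7 of 7 T cell markers (-0.59) were lower and 7 of 8 neutrophil markers higher (1.26). Their part in the result was not tested.

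By day, 7 genes were higher (17.2% of all genes) and 17 lower (27.4%) on Day 120 in 12 animals, and 3 (14.7%) and 16 (22.7%) on Day 150 in 9 animals. In the 6 animals of each later day, 10 were higher (11.7%) and 5 lower (13.9%) on Day 180, 3 (17.9%) and 28 (24.5%) on Day 210, and 7 (3.26%) and 0 (3.51%) on Day 240. On Day 270, 0 were higher and 0 lower by edgeR (0% and 0.00727% of all genes). There 24 of 74 had an unadjusted p under 0.05, but the share of all genes at that p is not given here. Nothing is concluded from that count. From Day 180 to Day 210, 24 of 74 genes were lower (6.26% of all genes) and 1 higher (4.62%) in 6 animals, and 22 of the 24 fell by a fold of 1.5 (4.95% of all genes). COX7B went from 47 CPM (25.8 to 83.2) to 18.4 CPM (6.63 to 61.9), lower in 6 of 6 animals with overlapping ranges (-1.34 ± 0.20, adjusted p = 0.00734). COX6C, a small subunit of complex IV, went from 8.50 CPM (6.45 to 12.8) to 3.35 CPM (1.94 to 5.23), and these ranges did not overlap (-1.38 ± 0.27, adjusted p = 0.0159). NDUFA5 also separated, from 12.4 CPM (10.5 to 24) to 5.59 CPM (4.62 to 8.28), with -1.24 ± 0.24 (adjusted p = 0.0159). Without the animal as a block 13 genes were lower (2.05%).

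Genes with related roles were read beside the subunit genes. Early, 47 of 75 cytosolic ribosomal protein genes were higher and 0 lower (median 0.37), and 16 of 34 constitutive proteasome genes were higher and 1 lower (0.14). Other mitochondrial genes moved less, with 19 higher and 5 lower of 78 mitochondrial ribosomal proteins (0.06), 10 and 3 of 45 assembly factors (0.04), and 5 and 2 of 19 genes of the tricarboxylic acid cycle (0.01). Late, 1 mitochondrial ribosomal protein gene was higher and 46 lower (median -0.41), 3 and 20 assembly factors (-0.33), 0 and 10 cycle genes (-0.31), and 2 and 34 cytosolic ribosomal protein genes (-0.52). The proteasome had 2 higher and 10 lower (-0.04). The subunit genes, at -0.16 late, lay between these lists, and the difference between lists was not tested.

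For neither dose nor sex did a difference in the early change of a subunit gene pass the threshold. For the difference between HD and LD animals, 0 of 74 genes and 0% of all genes passed edgeR's test with adjustment, as by DESeq2, and 5 of 74 (9 by DESeq2) had an unadjusted p under 0.05. For the difference between the sexes it was also 0 by both tools, with 0 of 74 (1 by DESeq2) at an unadjusted p under 0.05. Shares of all genes at an unadjusted p are not given here for either difference. Medians of these differences were 0.05 for dose (range -0.36 to 0.53) and 0.02 for sex (-0.16 to 0.39).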

How the data were processed

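RNA was sequenced by the authors from 304 whole blood samples of 28 animals. Per the labels, the authors trimmed reads with cutadapt 2.10, aligned them with STAR 2.7.6a to Mmul_10 and counted them with Subread 2.0.1 on RefSeq genes. The strand setting is not given in the sources used here. The deposited counts are whole numbers for 21070 genes, and a further table by the authors gives log2 values for 16730 genes after upper quartile scaling. The labels map every sample to its animal, day, dose and sex.

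Genes with at least 3 counts in 80% of samples (13751) were tested. Counts were summed per animal within a window or taken by day, and compared with edgeR 4.0.16 (quasi-likelihood, upper quartile scaling, animal as a block, Benjamini-Hochberg adjustment over all tested genes) in R 4.3.3. Per the labels, same-numbered samples come from the same animal. The median correlation of their deviations was 0.60 early, 0.46 medium and 0.28 late, against -0.03 between animals. The lowest value of an animal was 0.35 early, -0.002 medium and -0.06 late. Values were over 0.1 in 24 of 24, 23 of 24 and 12 of 14 animals. DESeq2 1.42.0, limma 3.58.1 on the log2 values, TMM scaling, no count filter, no block, the library series, subsets of animals and leaving out each animal were alternatives. On counts drawn with 1 fixed dispersion for all genes, 200 of 13751 genes were changed by a fold of 2, alike in every animal. There edgeR recovered 200 with 24 animals, 199 with 14 and 178 with 6, and called 8, 11 and 6 unchanged genes. Recovery at the spread of these data was not tested. CPM were upper quartile scaled. Depth ranged from 2840219 to 23638161 counts. In fits of counts summed per animal or taken by day, p-values measure spread between animals. The fit with the library series as a term differed: it took all 304 samples of 28 animals singly, with the animal as a block. Several samples of 1 animal in a window entered it, so its p-values measure spread between samples. Exonic lengths, overlaps and upstream bases came from the Mmul_10 annotation and genome with Python 3.11.15 and pandas 2.3.3, and figures from matplotlib 3.10.9.

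The subunit genes and lists were chosen with earlier results of these data known. Genes named are, per complex, the largest and smallest changes that passed the test early and late, the catalytic and defining subunits, isoform pairs and genes near the count limit. Other genes named with a value were chosen after their values were seen. Unnamed gene models (symbols beginning with LOC) with subunit products were not counted as subunit genes: 51 of 92 annotated were counted and 20 passed the filter. Of those 20, 7 were higher and 6 lower early. The animals' survival and pleural effusion were not used.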

Additional observations from a re-analysis of the deposited data

Results flagged for a closer look

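Differences between times after irradiation, rather than from control, were tested directly in animals drawn at both times. Late against medium, 28 of 74 subunit genes were lower, close to the share of all genes. On Day 9 against Day 3, 38 of 74 were lower, whereas more of all genes were higher than lower. On Day 21 against Day 9, 51 of 74 were higher, though in most HD animals the library series also differed between these days. On Day 210 against Day 180, 24 of 74 were lower in 6 animals, and these pairs of days were chosen after the single days had been seen. No sample lay far from its group on the 5 days with 4 to 10 samples.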

How the results depend on the processing

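Early counts of higher genes were within 1.5 times of 36 in every alternative except the animals followed past Day 90 (17). The 3 lower genes became 1 in those animals and 1 without the replicate block, where 24 were higher. The 7 genes over a fold of 1.5 became 4 with the series as a term, 3 without Day 21 and 4 without animals whose control is of series C. At medium time points, 8 were higher in animals followed past Day 90 and 6 with the series as a term, and lower genes were 0 with the series as a term and 0 within 1 series. Medium genes over a fold of 1.5 were 9 by DESeq2, 3 by limma, 14 within 1 series and 3 with the series as a term. Within 1 series (4 animals), NDUFA13 (0.0701), NDUFS1 (0.0601), ATP5MC1 (0.0195) and ATP5MC3 (0.0729) reversed, as did ATP5MC3 with the series as a term (0.0018) and late UQCRC1 (0.0433).

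Late lower genes were 13 with the series as a term. Late genes over a fold of 1.5 were 10 higher and 2 lower under TMM scaling, under DESeq2 and with no filter, and 2 and 1 with the series as a term. Leaving out 1 animal gave 8 to 11 higher, 22 to 28 lower, 3 to 8 higher by a fold of 1.5 and 3 to 9 lower by it: without B1006 the last 2 counts were 8 and 3, and without B1506 8 were higher by a fold of 1.5. TMM scaling moved the late median of all genes from -0.13 to -0.03 and DESeq2 to -0.01. Late against medium, higher genes were 10 by DESeq2, 3 without the block and 2 in series C, lower genes 17 under TMM, 15 by DESeq2 and 13 with no filter, and the 1 gene lower by a fold of 1.5 became 0 under TMM, DESeq2, no filter, no block, the series term and without Day 210. Without the replicate block, Day 21 against Day 9 gave 28 higher and 1 lower, and Day 210 against Day 180 0 and 13. Summed over the 11 days compared, 216 higher and 110 lower calls became 69 and 24 in animals followed to Day 270, where fewer animals were tested. Other causes were not tested. Depth limits low genes such as COX7C and COX6B2.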
